A study of Homo sapiens with 12 samples.

Results

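The mitosis and G2/M genes described here are 56 genes whose products carry a cell from G2 phase through mitosis, out of 22324 genes kept from the deposited table. They were chosen by name and by known function (mitotic cyclins and kinases, kinetochore and spindle proteins, kinesins, cytokinesis factors and the transcription factors FOXM1 and MYBL2). Their mRNA levels were read in MCF10A, a human mammary epithelial line that is immortalized but does not form tumors, in 12 libraries that fell into 3 groups of 4. These were the p53 knockout (p53 KO) clone KO414, the p53 KO clone KO313 and wild-type (WT) cells, with p53 removed from the clones by CRISPR-Cas9, each with its own pair of guide RNAs. All cells were grown in the same medium, which contained EGF, insulin, hydrocortisone, cholera toxin and horse serum, and no drug or damaging agent is named. Each clone grew from a single sorted cell, so the 8 p53 KO libraries stand for 2 edited cells. Nothing in the sources says that the WT cells were cloned or mock-edited, so losing p53 and passing through a clone cannot be told apart. The 4 libraries of a group are biological repeats according to the methods, and the p-values measure only the spread between these libraries.

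Entry into mitosis is driven by CDK1 bound to cyclin A or cyclin B, and it is held back by the kinase WEE1 and released by CDC25 phosphatases. The spindle checkpoint then keeps the anaphase-promoting complex (APC/C) from its activator CDC20 until every kinetochore is attached, after which separase cuts cohesin and the cell divides. Most of these genes are transcribed late in the cell cycle. In quiescent and early cycling cells the DREAM complex (E2F4 with DP, a pocket protein and the MuvB core) represses them, and later MuvB joins B-MYB (the product of MYBL2) and FOXM1 to activate them. p53 is known to lower many of them indirectly, through its target CDKN1A (p21), which blocks the kinases that take DREAM apart. MuvB binds DNA at the cell cycle genes homology region (CHR), and many of these promoters also carry CCAAT boxes, which bind NF-Y.

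Promoter sequence is shown first, because these elements are what the genes of the module are known to share beyond their function. The promoters were taken from RefSeq (GRCh38.p14), from 250 bases before to 50 bases after each annotated start, and 48 of the 56 genes matched. The letters TTTGAA (CHR) and CCAAT were searched on both strands, so TTCAAA and ATTGG count as matches too. A match to each was counted whether or not it shared bases with the other. No variant of the CHR, such as TTCGAA, was searched, so a gene without a match may still hold a variant. Each line gives the 110 bases that end just before the start, 5′ to 3′ on the gene's strand, with matches to either motif in capitals. The first 5 genes rose in the p53 KO libraries and have a CHR match in this stretch. CKS2 and GTSE1 have one as well and did not pass the test. MYBL2 and KIF2C rose and have neither motif.
ESPL1 (chr12:53268189-53268298, + strand): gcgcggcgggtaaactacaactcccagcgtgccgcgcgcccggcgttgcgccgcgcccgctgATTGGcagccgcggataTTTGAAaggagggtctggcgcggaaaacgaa
CDC20 (chr1:43358871-43358980, + strand): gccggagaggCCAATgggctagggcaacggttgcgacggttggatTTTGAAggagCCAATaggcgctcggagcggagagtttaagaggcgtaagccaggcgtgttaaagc
PLK1 (chr16:23678779-23678888, + strand): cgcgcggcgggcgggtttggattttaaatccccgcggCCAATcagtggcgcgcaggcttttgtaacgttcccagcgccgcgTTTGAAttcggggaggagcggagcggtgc
KIF4A (chrX:70289994-70290103, + strand): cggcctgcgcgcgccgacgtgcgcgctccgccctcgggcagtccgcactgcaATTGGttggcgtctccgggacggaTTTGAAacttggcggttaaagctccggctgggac
PRC1 (chr15:90994536-90994645, - strand): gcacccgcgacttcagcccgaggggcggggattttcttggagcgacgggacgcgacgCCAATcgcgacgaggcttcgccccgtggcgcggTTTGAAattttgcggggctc
CKS2 (chr9:89311085-89311194, + strand): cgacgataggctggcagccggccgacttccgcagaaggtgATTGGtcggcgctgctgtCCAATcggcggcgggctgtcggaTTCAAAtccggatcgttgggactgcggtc
GTSE1 (chr22:46296760-46296869, + strand): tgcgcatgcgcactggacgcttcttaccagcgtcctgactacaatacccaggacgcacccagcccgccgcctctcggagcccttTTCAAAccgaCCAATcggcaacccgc
MYBL2 (chr20:43667004-43667113, + strand): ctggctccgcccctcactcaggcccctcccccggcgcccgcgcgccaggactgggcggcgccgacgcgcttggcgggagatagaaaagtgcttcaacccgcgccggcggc
KIF2C (chr1:44739727-44739836, + strand): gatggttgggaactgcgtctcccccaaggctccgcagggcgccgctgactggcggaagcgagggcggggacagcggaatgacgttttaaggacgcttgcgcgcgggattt

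Over the whole promoter window, 35 of the 48 genes (72.9%) had a CHR match, against 18.2% of the 27305 genes with a promoter in RefSeq. CCAAT matches were present in 40 of the 48 (83.3%), against 39.7% of all genes. Both motifs stood in 1 promoter for 30 of the 48 (62.5%), against 7.26% of all genes. A CHR match in the last 60 bases before the start, where ESPL1, PLK1, KIF4A, PRC1, CKS2 and GTSE1 carry theirs, was found in 20 of the 48 (41.7%), against 3.42% of all genes. Whether these matches differed between the genes that rose and the others was not tested. A CHR match was present in 11 of the 17 matched genes that rose (64.7%) and in 24 of the 31 that were not called (77.4%). The median log2 change of p53 KO against WT was 0.12 for the 35 genes with a match and 0.18 for the 13 without. For a CHR match in the last 60 bases it was 0.17 for the 20 genes with one and 0.11 for the 28 others. That match was present in 7 of the 17 genes that rose (41.2%) and 13 of the 31 not called (41.9%). CCAAT matches were present in 15 of the 17 (88.2%) and 25 of the 31 (80.6%). A match describes the letters in this window and is not evidence of binding.

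**Figure D1:**
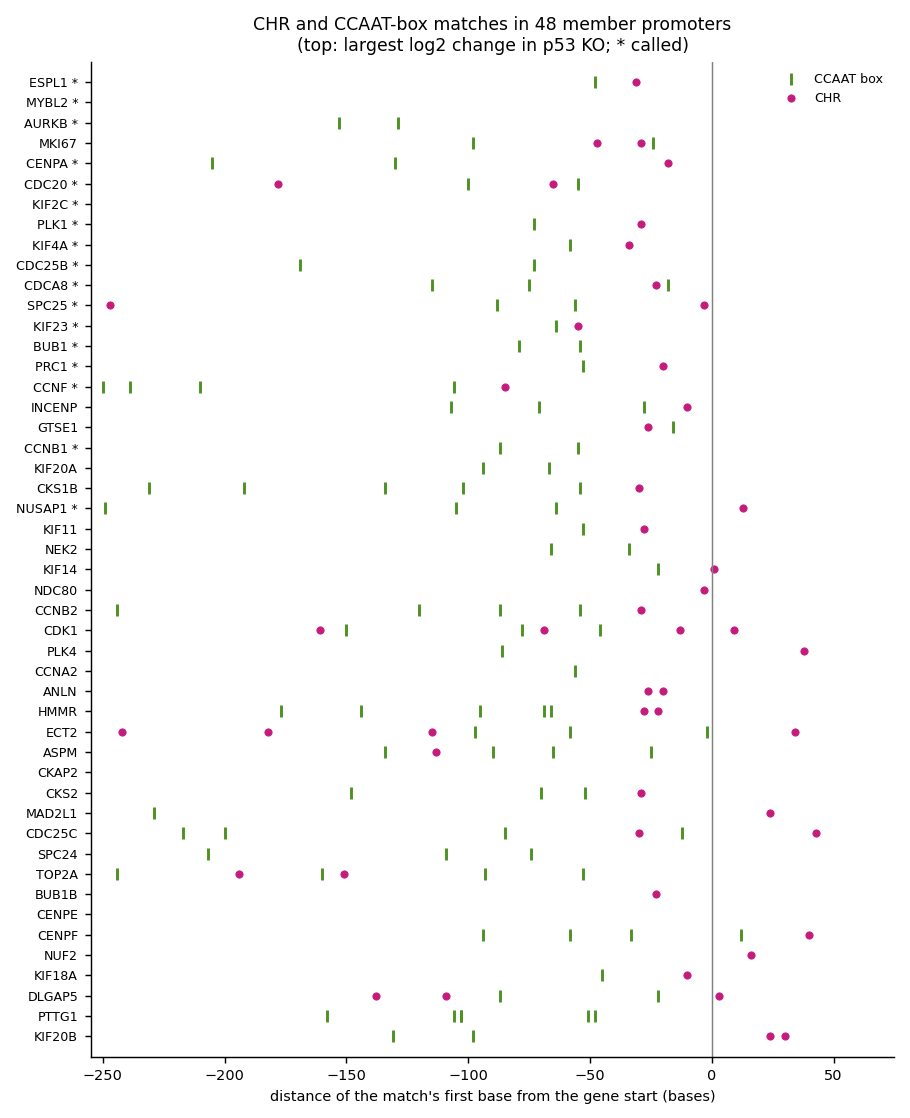
Positions of CHR (pink points) and CCAAT-box (green ticks) matches in the promoters of 48 mitosis and G2/M genes, by the distance of each match's first base from an annotated start (x axis, bases; for genes with more than 1 start, each match is placed from its own start). Genes run from the largest log2 change in p53 KO at the top to the lowest at the bottom, an asterisk marks a gene called higher, and CHR matches lie along the whole height: 35 of the 48 genes have one.

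A known target of p53 was read first, as a check of the labels. CDKN1A, which encodes the CDK inhibitor p21 and is a textbook p53 target, was at 25.36 to 35.64 RPKM (read numbers divided by gene length and by the library total) over the 8 p53 KO libraries and at 228 to 271.5 RPKM over the 4 WT libraries (log2 change -3.00, adjusted p = 2.38e-11, limma). Its level was lower in every p53 KO library than in any WT library. All 8 epithelial markers used to check the cell type were detected. With the clones combined, 5 of them fell, TP63 rose (log2 change 0.47, adjusted p = 0.00168, limma) and ITGB4 and EPCAM were not called. EPCAM was called higher in KO414 alone (log2 change 0.15, adjusted p = 0.0482, limma) and higher in KO414 than in KO313 (0.30, adjusted p = 0.00536). Their summed level was 1108 to 1364 RPKM in p53 KO and 1695 to 1940 RPKM in WT, most of it from KRT5 (mean 988.6 RPKM in p53 KO and 1344 RPKM in WT). Of 5 immune markers, CD68 and CD14 rose in p53 KO (summed level of the 5, 6.05 to 7.15 RPKM in p53 KO and 4.20 to 4.38 RPKM in WT), while PTPRC and CD3E were at no more than 0.0357 RPKM in any library. CSF1R averaged 0.492 RPKM in p53 KO and 0.596 RPKM in WT and was not called (log2 change -0.14, adjusted p = 0.0779, limma). Endothelial and fibroblast markers summed to at most 0.0636 and 0.633 RPKM in any library. The part of these marker differences in the results below was not tested.

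The 56 genes were all expressed. Mean WT levels ran from 4.05 RPKM for ESPL1 to 183.9 RPKM for CKS1B, and every gene passed the filter of at least 0.5 RPKM in at least 4 libraries, which left 12215 genes for testing on log2(RPKM + 0.5). In the 8 p53 KO libraries against the 4 WT libraries, 20 of the 56 (35.7%) rose and none fell at an adjusted p under 0.05 (limma with Benjamini-Hochberg adjustment over all 12215 genes, two-sided). Over all genes tested, 15.6% were called higher and 14% lower. At an unadjusted p under 0.05, 25 of the 56 were higher and 0 lower, against 2573 higher and 2268 lower of all 12215 genes. The changes were small: the 20 genes that rose did so by 1.11-fold to 1.48-fold in mean RPKM, and 0 of the 56 reached 2-fold, which 22 of all genes tested did upward (0.18%) and 158 downward (1.29%). Among the 56, 49 had a log2 change above 0, the median was 0.14 (range -0.15 to 0.51), and the median over all genes tested was 0.01 (quartiles -0.12 and 0.14). All 8 p53 KO libraries lay above all 4 WT libraries for 15 of the 56, as they did for 9.25% of all genes, and below them for 0, as for 9.74% of all genes. WT replicate 3 had the lowest mean over the module. Without it the count of genes that rose was 14 and the median 0.09. The share of all genes called higher in that setting is not given here, so the lower count is not set against it. In RNA from a bulk culture, a change in the share of cells that are in G2 or mitosis and a change of RNA per cell cannot be told apart.

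**Figure D2:**
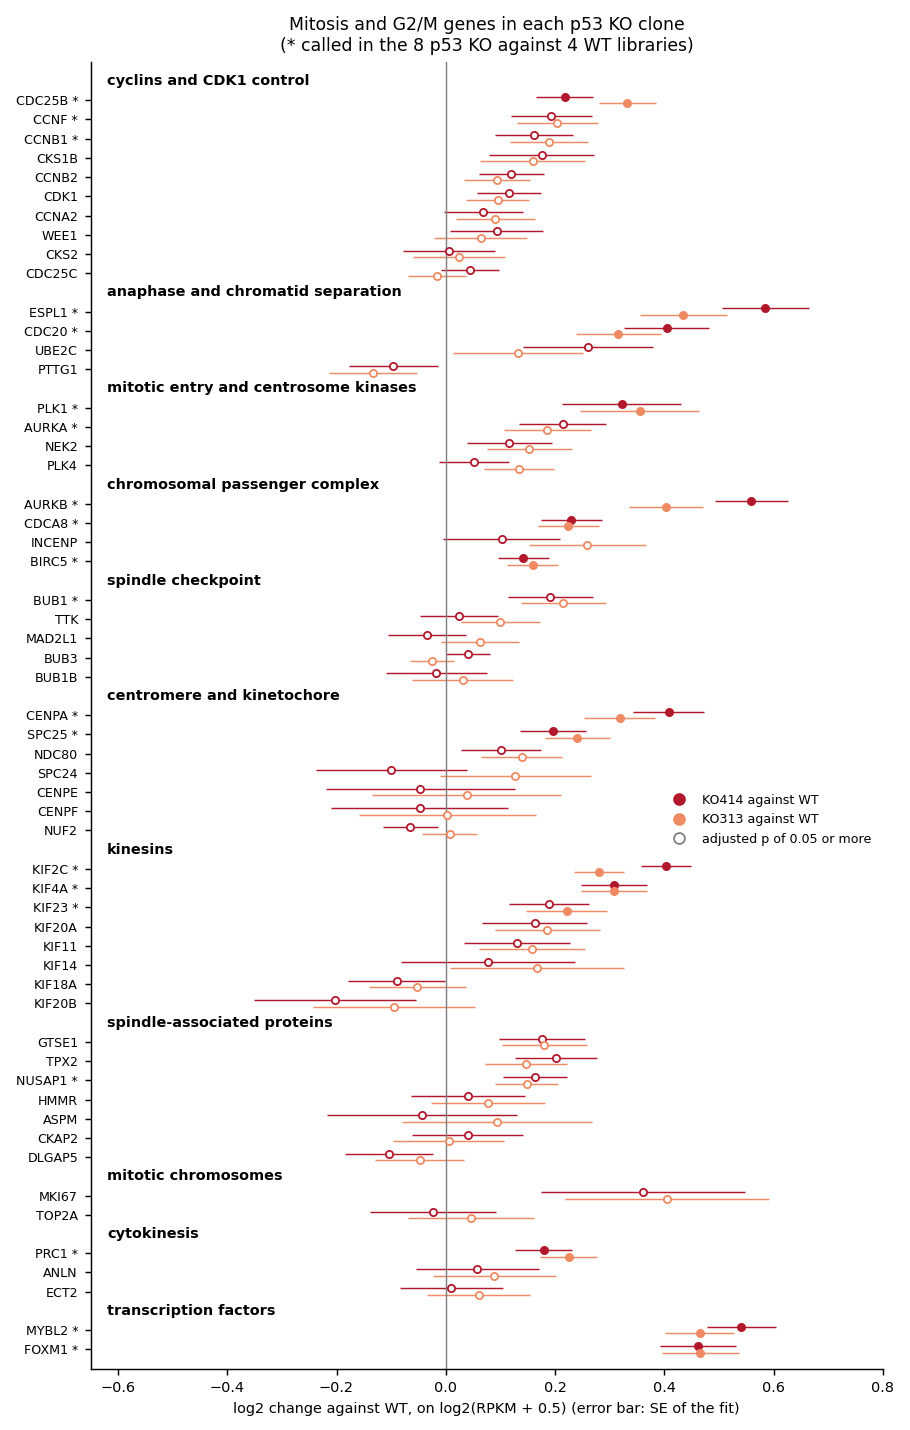
Log2 change against WT (x axis, on log2(RPKM + 0.5), with the SE of the fit as error bar) of each of the 56 genes in KO414 (dark red) and KO313 (orange), grouped by role. Filled points passed an adjusted p of 0.05 in that clone and an asterisk marks the 20 genes called in the 8 p53 KO libraries. The changes run from -0.203 to 0.585 in KO414 and from -0.133 to 0.466 in KO313.

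The transcription factors of the late cell cycle changed together. FOXM1, a forkhead factor that activates G2/M genes, was at 30.49, 36.86, 34.29 and 37.06 RPKM in KO414, 32.94, 37.29, 33.37 and 35.25 RPKM in KO313, and 24.09, 26.84, 25.71 and 23.37 RPKM in WT. Every p53 KO library was above every WT library, and the clones overlapped each other. The log2 change was 0.46 (SE 0.06, adjusted p = 5.4e-05, limma), a 1.39-fold difference of means. MYBL2, which encodes the MuvB partner B-MYB, was at 66.24, 59.69, 58.36 and 62.35 RPKM in KO414, 53.63, 61.01, 56.25 and 63.04 RPKM in KO313, and 40.88, 45.68, 41.62 and 40.65 RPKM in WT. Again no p53 KO library overlapped WT. Its log2 change was 0.50 (SE 0.06, adjusted p = 1.57e-05), the smallest adjusted p of the 56. FOXM1 shares 781 bases of exon with ITFG2 on the opposite strand (GENCODE 29), equal to 12.9% of the length behind its RPKM. The sources do not say whether reads were counted by strand.

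**Figure D3:**
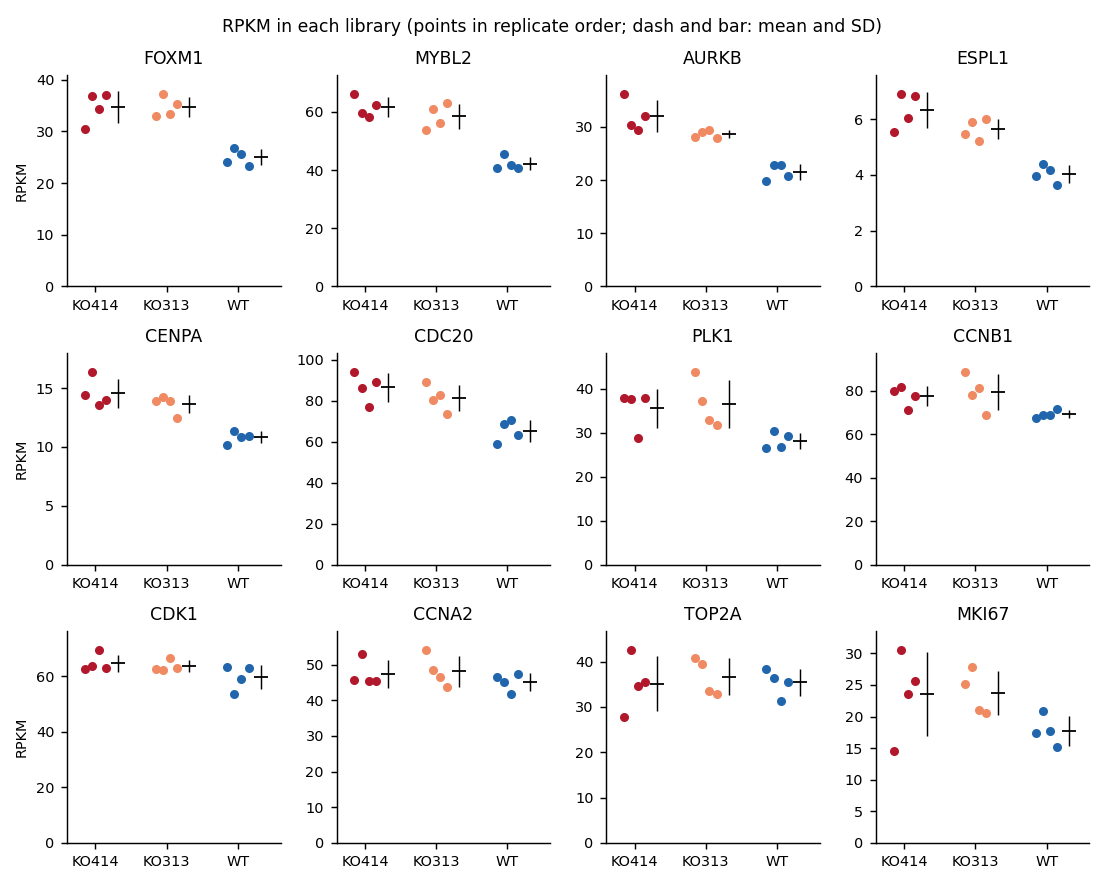
RPKM (y axis, from 0) of 12 genes in each library of KO414, KO313 and WT, with points in replicate order and the mean and SD of each group of 4 beside them. The p53 KO points lie clear above WT for FOXM1, MYBL2, AURKB, ESPL1, CENPA and CDC20, touch or overlap WT for PLK1 and CCNB1, and are mixed with WT for CDK1, CCNA2, TOP2A and, in KO414 replicate 1 and KO313 replicate 4, MKI67.

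Of the 10 cyclins and CDK1 regulators, 3 rose (CDC25B, CCNF and CCNB1) and 7 were not called, with a median log2 change of 0.11. This count and those of the roles below stand beside the 15.6% of all genes tested that were called higher. CDC25B, a phosphatase that starts CDK1 activation, was at 26.04, 23.27, 23.13 and 24.11 RPKM in KO414, 27.34, 26.05, 24.99 and 26.25 RPKM in KO313, and 19.61, 21.86, 20.69 and 20.54 RPKM in WT. All p53 KO libraries exceeded all WT libraries, and KO313 lay above KO414 on average. The log2 change of p53 KO was 0.28 (SE 0.05, adjusted p = 0.00127). CCNB1, cyclin B1, was at 79.73, 81.7, 71.09 and 77.75 RPKM in KO414, 88.68, 78.09, 81.5 and 68.76 RPKM in KO313, and 67.44, 68.7, 69.01 and 71.7 RPKM in WT. KO414 replicate 3 and KO313 replicate 4 fell inside the WT range. The log2 change of 0.17 (SE 0.06) passed narrowly (adjusted p = 0.0397) and did not pass when any 1 of the 4 WT libraries, KO414 replicates 2 or 4, or KO313 replicates 2 or 3 was left out (highest adjusted p over the alternatives, 0.105). CCNF, the F-box protein cyclin F, rose by a similar 1.15-fold (adjusted p = 0.0269), and its call was lost without WT replicate 1, 3 or 4 (highest adjusted p 0.0876).

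The kinase at the centre of the switch was not called. CDK1 was at 62.8, 63.64, 69.46 and 62.94 RPKM in KO414, 62.77, 62.29, 66.77 and 63.2 RPKM in KO313, and 63.34, 53.75, 58.95 and 63.05 RPKM in WT. Of the 8 p53 KO libraries, 3 were above all WT libraries and the others overlapped the upper WT values (log2 change 0.11, SE 0.05, adjusted p = 0.126). CCNA2, cyclin A2, averaged 47.8 ± 3.82 RPKM in p53 KO (SD, n = 8) and 45.1 ± 2.5 RPKM in WT (SD, n = 4), with 3 of 8 p53 KO libraries above all WT (adjusted p = 0.357, limma). WEE1, the inhibitory kinase of CDK1, averaged 6.57 ± 0.56 RPKM in p53 KO (n = 8) and 6.2 ± 0.6 RPKM in WT (n = 4; adjusted p = 0.448, limma). CKS1B, a CDK subunit and the most abundant of the 56, was at 179.3 to 243.6 RPKM in p53 KO (median 205.5) and at 166.8, 172.9, 202.2 and 193.7 RPKM in WT. Its groups overlapped (log2 change 0.17, SE 0.08, adjusted p = 0.136), and 6 pseudogenes named after it could share its reads. Such pseudogenes are annotated for 11 of the 56 genes, among them CDC20, AURKA, BUB1 and MKI67.

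Of the 4 anaphase genes, ESPL1 and CDC20 rose, and UBE2C and PTTG1 were not called (median log2 change 0.28). ESPL1 encodes separase, the protease that opens cohesin rings. It was at 5.56, 6.92, 6.03 and 6.84 RPKM in KO414, 5.46, 5.92, 5.22 and 6.0 RPKM in KO313, and 3.98, 4.39, 4.2 and 3.63 RPKM in WT. It was the least expressed of the 56 in WT, and its log2 change was 0.51 (SE 0.08, adjusted p = 0.000213), with every p53 KO library above every WT library. CDC20, the APC/C activator that the checkpoint restrains, was at 93.96, 86.28, 76.87 and 88.93 RPKM in KO414, 88.99, 80.4, 82.49 and 73.44 RPKM in KO313, and 58.94, 68.64, 70.31 and 63.07 RPKM in WT. The lowest p53 KO library was above the highest WT library, and the log2 change was 0.36 (SE 0.07, adjusted p = 0.00146). PTTG1, securin, the inhibitor of separase, averaged 124.0 RPKM in p53 KO and 134.5 RPKM in WT (log2 change -0.12, adjusted p = 0.229).

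PLK1 and AURKA rose among the 4 kinases of mitotic entry and the centrosome, and PLK4 and NEK2 were not called (median log2 change 0.17). PLK1, which acts from mitotic entry to cytokinesis, was at 37.83, 37.61, 28.85 and 37.88 RPKM in KO414, 43.84, 37.28, 32.88 and 31.79 RPKM in KO313, and 26.49, 30.32, 26.8 and 29.19 RPKM in WT. In 7 of 8 p53 KO libraries PLK1 was above all WT libraries, and KO414 replicate 3 stood apart inside the WT range. The log2 change was 0.34 (SE 0.09, adjusted p = 0.0128). An unnamed gene on the opposite strand, AC008870.3, overlaps its exons over 553 bases (GENCODE 29), equal to 13.9% of the length behind its RPKM. AURKA, which matures centrosomes and builds the spindle, averaged 32.2 ± 2.97 RPKM in p53 KO (n = 8) and 27.9 ± 1.15 RPKM in WT (n = 4). The groups overlapped through KO313 replicate 4 alone, at 27.42 RPKM, and the call (adjusted p = 0.0385, limma) was lost in 12 of 21 alternative settings. Those included leaving out any 1 WT library, KO414 replicates 2 or 4, or KO313 replicates 1, 2 or 3 (highest adjusted p 0.116).

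The chromosomal passenger complex corrects faulty attachments of chromosomes to the spindle and is needed for cytokinesis. Of its 4 subunits, AURKB, CDCA8 and BIRC5 rose and INCENP was not called (median log2 change 0.20). The kinase AURKB was at 36.24, 30.43, 29.51 and 32.09 RPKM in KO414, 28.13, 29.08, 29.49 and 27.89 RPKM in KO313, and 19.85, 22.8, 22.85 and 20.81 RPKM in WT. The lowest p53 KO library, at 27.89 RPKM, was well above the highest WT library, at 22.85 RPKM, and the log2 change was 0.48 (SE 0.07, adjusted p = 0.000132). CDCA8 (borealin) averaged 20.2 ± 0.942 RPKM in p53 KO (n = 8) and 17.2 ± 0.954 RPKM in WT (n = 4), without overlap (log2 change 0.23, adjusted p = 0.00274, limma). BIRC5 (survivin) had a log2 change of 0.15 (adjusted p = 0.0121), also without overlap, and was at the threshold without WT replicate 2 (adjusted p = 0.0505). INCENP, the scaffold, was at 8.42, 10.12, 8.4 and 10.18 RPKM in KO414, 12.23, 10.98, 8.85 and 9.68 RPKM in KO313, and 9.42, 9.31, 7.41 and 8.31 RPKM in WT, with the groups interleaved (adjusted p = 0.184).

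Of 5 checkpoint genes, BUB1 rose (median log2 change 0.02). BUB1, a kinase that recruits checkpoint proteins to kinetochores, averaged 17.9 ± 1.48 RPKM in p53 KO (n = 8) and 15.5 ± 1.0 RPKM in WT (n = 4; log2 change 0.20, adjusted p = 0.0327, limma), with KO414 replicate 1 inside the WT range. Its call was lost without WT replicate 1, 3 or 4, KO414 replicate 2 or 4, or KO313 replicate 2 (highest adjusted p 0.115). BUB1B, BUB3, MAD2L1 and TTK, which are the other checkpoint proteins measured, had log2 changes of 0.01 to 0.06, with adjusted p-values of 0.504 to 0.96.

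Of 7 centromere and kinetochore genes, CENPA and SPC25 rose (median log2 change 0.01). CENPA, the histone H3 variant that marks centromeres, was at 14.4, 16.38, 13.6 and 13.96 RPKM in KO414, 13.94, 14.27, 13.91 and 12.5 RPKM in KO313, and 10.15, 11.4, 10.89 and 10.97 RPKM in WT. The lowest p53 KO library was above the highest WT library (log2 change 0.36, SE 0.06, adjusted p = 0.000441). SPC25 averaged 17.4 ± 1.08 RPKM in p53 KO (n = 8) and 14.9 ± 0.661 RPKM in WT (n = 4), without overlap (log2 change 0.22, adjusted p = 0.00626, limma). Its 3 partners in the NDC80 complex, which holds microtubule ends, were not called: NDC80 had a log2 change of 0.12, SPC24 of 0.01 and NUF2 of -0.03. SPC24 had the fewest reads behind it of the 56 genes, and WT replicate 1 was high at 15.01 RPKM against 8.18 to 10.21 RPKM in the other WT libraries. The large kinetochore proteins CENPE and CENPF had log2 changes of -0.01 and -0.02 and wide intervals (95% CI -0.32 to 0.31 and -0.32 to 0.27).

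Kinesins move chromosomes and slide or take apart microtubules. Of the 8 measured, KIF2C, KIF4A and KIF23 rose and 5 were not called (median log2 change 0.16). KIF2C, a microtubule depolymerase, was at 24.57, 25.95, 25.69 and 25.62 RPKM in KO414, 22.26, 24.66, 23.86 and 22.71 RPKM in KO313, and 18.55, 19.49, 19.97 and 18.52 RPKM in WT. Both clones were clear of WT, and KO414 was the higher on average (log2 change of p53 KO 0.34, SE 0.05, adjusted p = 0.000153). KIF4A, a chromosome-bound motor, averaged 10.4 ± 0.576 RPKM in p53 KO (n = 8) and 8.28 ± 0.462 RPKM in WT (n = 4), without overlap (log2 change 0.31, adjusted p = 0.000528, limma). Its near-identical retrogene copy KIF4B was at no more than 0.0281 RPKM. KIF23, a cytokinesis motor, had a log2 change of 0.20 (adjusted p = 0.0237), which did not pass without WT replicate 3 (0.0897). KIF20B had the lowest log2 change of the 56, -0.15 (95% CI -0.42 to 0.12, adjusted p = 0.412).

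Among the 7 spindle-associated genes, NUSAP1, which bundles microtubules at chromosomes, rose (log2 change 0.16, adjusted p = 0.0287), and the median log2 change was 0.06. Its call was lost when any 1 WT library was left out. A same-strand gene, AC087721.2, overlaps its exons over 1787 bases, equal to 47.2% of the length behind its RPKM. TPX2 and GTSE1 narrowly missed the threshold (adjusted p = 0.0546 and 0.0564), and GTSE1 was the only gene with all 8 p53 KO libraries above WT that was not called. HMMR, CKAP2, ASPM and DLGAP5 had log2 changes of -0.08 to 0.06. Among the 3 cytokinesis genes, PRC1, the bundler of the central spindle, rose with a log2 change of 0.20 (adjusted p = 0.00445), and ECT2 and ANLN were not called (adjusted p = 0.782 and 0.598). PRC1 was at 42.6 to 50.9 RPKM in p53 KO and 39.7 to 41.9 RPKM in WT. A gene on the same strand, AC068831.7, overlaps its exons over 3181 bases, equal to 62.9% of the length behind its RPKM. KIF23, BIRC5, NUSAP1, PRC1, TPX2, GTSE1 and the other genes outside the naming rule were named after their values were seen.

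Neither gene of the mitotic chromosome itself was called. TOP2A, the topoisomerase that untangles sister chromatids, was at 27.88, 42.55, 34.68 and 35.59 RPKM in KO414, 40.85, 39.48, 33.59 and 32.82 RPKM in KO313, and 38.32, 36.46, 31.42 and 35.58 RPKM in WT. The 3 groups overlapped entirely (log2 change 0.01, 95% CI -0.20 to 0.22, adjusted p = 0.944), and the sign of this change turned in 5 alternative settings. MKI67, which encodes the proliferation marker Ki-67, was at 14.51, 30.51, 23.59 and 25.65 RPKM in KO414, 25.11, 27.9, 21.07 and 20.58 RPKM in KO313, and 17.33, 20.85, 17.64 and 15.1 RPKM in WT. In 6 of 8 p53 KO libraries MKI67 was above every WT library, whereas KO414 replicate 1 was the lowest of all 12. The log2 change of 0.38 was among the larger ones but came with an SE of 0.16 and did not pass (adjusted p = 0.0809). Without KO414 replicate 1 it was 0.48 and passed (adjusted p = 0.00454).

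KO414 replicate 1 differed from the other libraries in how its values followed gene length. Lengths were recovered from the RPKM values (each value is a whole number divided by the length and the library total), and in this library log2 RPKM fell by 0.124 per doubling of length relative to the mean of all libraries. The other 11 libraries had slopes from -0.042 (WT replicate 3) to 0.063 (KO414 replicate 2). The genes of the module with the widest spread within groups were long: MKI67 (22269 bases, within-group SD 0.304 on the log2 scale), ASPM (21325 bases, 0.283), CENPE (16721 bases, 0.279), CENPF (19644 bases, 0.263), KIF14 (12227 bases, 0.257) and KIF20B (11896 bases, 0.238). ESPL1, at 12989 bases, did not share this spread (0.113). Across the 56 genes, which share the same 12 libraries, the within-group SD and the length had a Spearman rho of 0.433, whereas over 11444 tested genes with a recovered length rho was -0.006. With the length trend of each library removed, an alternative chosen after seeing the data, 20 genes were again called, 17 of them the same. Over all genes, 2075 of the 11444 tested were then called higher, against 1902 of 12215 in the main setting. MKI67 then passed (log2 change 0.39, adjusted p = 0.000802), as did CKS1B (0.23, adjusted p = 0.000225) and TPX2 (adjusted p = 0.0443), while CCNB1, AURKA and NUSAP1 did not (adjusted p = 0.0519, 0.0551 and 0.0611).

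**Figure D4:**
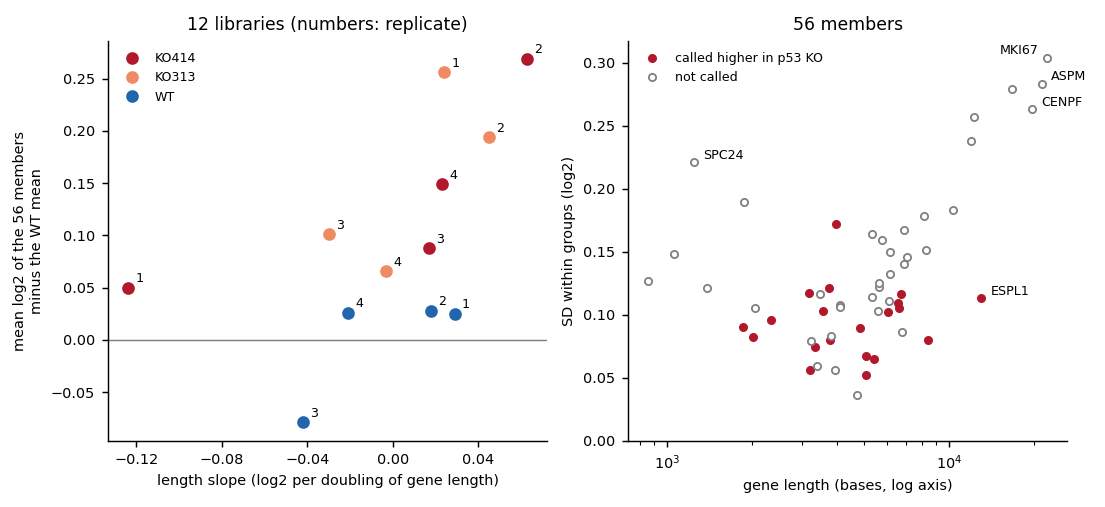
Left, the mean log2 level of the 56 genes in each library minus the WT mean (y axis) against the slope of that library's log2 values on log2 gene length (x axis), with replicate numbers beside the points. KO414 replicate 1 has a slope of -0.124 and a mean of 0.05, the lowest of the p53 KO libraries. Right, the SD within groups (y axis, log2) against recovered gene length (x axis, log scale) for the 56 genes, with MKI67, ASPM and CENPF at the upper right and ESPL1 below them.

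Read over the whole module, the mean log2 level above the WT mean was 0.05, 0.269, 0.088 and 0.149 in KO414 replicates 1 to 4, 0.256, 0.194, 0.101 and 0.066 in KO313, and 0.025, 0.028, -0.079 and 0.026 in WT. All 8 p53 KO libraries lay above all 4 WT libraries, although KO414 replicate 1 at 0.05 was closer to WT replicate 2 at 0.028 than to any other p53 KO library but KO313 replicate 4. By the median over the module the groups overlapped, with KO313 replicate 4 at 0.031 and WT replicate 2 at 0.032. KO313 replicate 1 had 55 of the 56 genes above their WT mean, KO313 replicate 4 had 30, and WT replicate 3 had 14.

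Each clone was then set against WT on its own, which asks whether the difference rests on 1 edited cell. KO414 had 14 of the 56 genes higher and 0 lower, against 15.2% of all genes higher and 14.6% lower. KO313 had 15 higher and 0 lower, against 10.8% and 10.7%. At a fold of 2, 0 of the 56 were called in either clone, against 0.336% of all genes higher and 1.58% lower in KO414 and 0.213% higher and 1.22% lower in KO313. The median log2 change was 0.12 in KO414 and 0.15 in KO313. The clones share the WT libraries, so these lists are not independent of each other: 14 genes were called in both (8.95% of all genes were called higher in both), KIF23 in KO313 only, and 0 in KO414 only. CCNB1, CCNF, AURKA, BUB1 and NUSAP1 passed only with the clones combined. Side by side, the log2 changes in KO414 and KO313 were 0.58 and 0.43 for ESPL1, 0.56 and 0.40 for AURKB, 0.54 and 0.47 for MYBL2, and 0.46 and 0.47 for FOXM1.

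The difference between the clones was also tested directly. Between KO414 and KO313, 0 of the 56 genes were called in either direction (limma, adjusted p under 0.05), against 1.15% of all genes higher and 2.22% lower in KO414 (0.0491% and 0.237% at a fold of 2). At an unadjusted p under 0.05, 596 of all 12215 genes were higher and 808 lower in KO414. Of the 56 genes, 2 were higher and 1 lower. These were KIF2C (log2 difference KO414 minus KO313 0.12, 95% CI 0.02 to 0.22, adjusted p = 0.272), AURKB (0.16, 95% CI 0.01 to 0.30, adjusted p = 0.374) and CDC25B (-0.12, 95% CI -0.23 to -0.002, adjusted p = 0.415). For FOXM1 the interval of the difference was -0.16 to 0.15, for KIF4A -0.13 to 0.13 and for TOP2A -0.32 to 0.18. The intervals of all 56 genes lay between -0.53 and 0.39. Missing the threshold does not show that the clones act alike.

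Further genes of the same machinery were read from lists written from textbook knowledge. Of 30 other kinetochore and centromere genes tested, 15 rose and 0 fell (median log2 change 0.18). Over all genes tested 15.6% rose and 14% fell, with a median of 0.01, and these shares stand beside the lists that follow too. HJURP, the chaperone that loads CENPA, averaged 13.9 ± 0.884 RPKM in p53 KO (n = 8) and 10.2 ± 0.426 RPKM in WT (n = 4; log2 change 0.42, adjusted p = 4.32e-05, limma). CENPO, SKA3 and ZWINT rose as well, by log2 changes of 0.37, 0.30 and 0.22. Of 34 other spindle, kinesin and cytokinesis genes, 14 rose and 0 fell (median 0.14). By smallest p they were led by KIF18B (0.45, adjusted p = 1.66e-05, limma), FAM64A (0.39), TROAP (0.43) and HAUS8 (0.32). Of 18 condensin and cohesin genes, 6 rose and 0 fell (median 0.12). CDCA5, which encodes the cohesin protector sororin, averaged 43.5 ± 2.59 RPKM in p53 KO (n = 8) and 30.6 ± 1.57 RPKM in WT (n = 4). It had the smallest adjusted p of that list (log2 change 0.50, adjusted p = 9.78e-06, limma). NCAPH, NCAPG and NCAPD3, subunits of condensin, had log2 changes of 0.24, 0.19 and 0.24.

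Of 17 anaphase-promoting complex genes, 3 rose and 1 fell (median log2 change 0.02), against 15.6% higher and 14% lower over all genes tested. FBXO5, which encodes the APC/C inhibitor EMI1, rose (0.40, adjusted p = 2.49e-05), as did UBE2S (0.35, adjusted p = 0.0414) and ANAPC5 (0.11, adjusted p = 0.0311), and CDC26 fell (-0.28, adjusted p = 0.00555). Of 13 tested genes of the CDK1 switch and its phosphatases, 2 rose and 3 fell (median -0.01), beside the same shares over all genes tested. CDC25A, the CDC25 phosphatase that acts from G1/S onward, averaged 26.0 ± 1.85 RPKM in p53 KO (n = 8) and 17.6 ± 0.426 RPKM in WT (n = 4; log2 change 0.55, adjusted p = 6.37e-06, limma), and MASTL, the kinase that restrains the phosphatase PP2A in mitosis, rose too (0.33). PPP2R2D, a PP2A subunit, and the germline cyclin CCNA1 fell (-0.22 and -0.55).

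Of 10 genes tested from the list of p53-linked G2 brakes, 8 fell and 0 rose (median log2 change -1.15). Over all genes tested, 14% fell and 15.6% rose. Besides CDKN1A these included BTG2, at 4.69 to 5.96 RPKM in KO414, 3.48 to 4.64 RPKM in KO313 and 39.5 to 45.4 RPKM in WT (log2 change -3.04, adjusted p = 1.49e-10, limma). PLK2 fell as well (-1.33), as did PPM1D (-1.30), which is on the list but is not itself a brake. Many genes of this list are textbook p53 targets, so their direction was known when the list was written. Of 13 genes of the DREAM and MuvB complexes with the p53-p21 arm, which also counts CDKN1A, 2 rose and 2 fell (median 0.08), near the 15.6% higher and 14% lower over all genes tested. E2F4 and TFDP1, the E2F and DP subunits of DREAM, rose (0.34 and 0.18), and RBL2, its pocket protein p130, fell (-0.29, adjusted p = 0.00942). The 39 genes of G1/S and DNA replication, which are transcribed earlier in the cycle, had 26 higher and 2 lower (median 0.24). The shares over all genes tested were again 15.6% and 14%. E2F1 rose by 0.66 on the log2 scale (adjusted p = 3.13e-05), and MCM3 and MCM4, subunits of the replicative helicase, rose by 0.39 and 0.37. PCNA, the replication clamp and also a p53 target, fell (-0.54, adjusted p = 5.64e-06). Whether the G1/S genes moved more than the mitosis and G2/M genes was not tested.

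**Figure D5:**
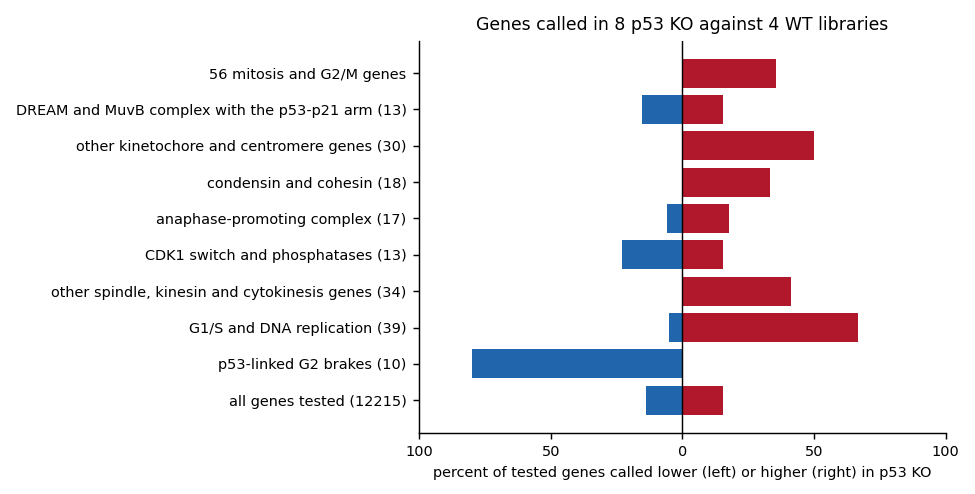
Percent of tested genes called higher (right, red) or lower (left, blue) in the 8 p53 KO libraries against the 4 WT libraries for the 56 mitosis and G2/M genes, 8 related lists and all 12215 genes tested, with the number tested in parentheses. The 56 genes have 35.7% called higher and 0 lower, against 15.6% and 14% over all genes, and the p53-linked G2 brakes lie on the lower side alone.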

How the data were processed

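RNA-seq libraries of KO414, KO313 and WT MCF10A cells (4 each) were grouped, and their replicate numbers taken, from the sample labels. The authors deposited 1 table of RPKM values for 22328 rows. The submitters' processing notes name Trimmomatic and the genome build hg19. The sources used here do not give the aligner, the counting program, the annotation or the use of strand. The labels name an mRNA kit and the methods ribosomal RNA removal, which was not resolved. The table gives no coordinates.

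Of the rows, 26 carried date-like symbols and 4 rows with a repeated symbol were left out, and 3626 genes were at 0 in all libraries. For 99.98% of 11640 genes with at least 50 scaled reads in every library, the RPKM values gave a whole-number length within 0.01 bases. The library totals behind them were 39294810 to 39343011 and differed by 0.123%, so the libraries had been brought to a common total and the original depth is unknown. The 56 genes rest on at least 402 scaled reads each, which were not taken as counts. No 2 libraries shared more than 0.188% of their values.

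Values were used as log2(RPKM + 0.5), which understates the change of low genes, for genes with at least 0.5 RPKM in at least 4 libraries. Limma 3.58.1 with an intensity trend (R 4.3.3) was fitted to all 12215 genes, with 2 groups for p53 KO against WT and 3 groups for each clone and for KO414 against KO313, two-sided, with Benjamini-Hochberg adjusted p under 0.05. The authors used DESeq2 with the clones combined, which needs counts and was not run. The fit was tested on simulated data. Alternatives were pseudocounts of 0.1 and 1, no filter, a mean of at least 2 RPKM, median-ratio scaling, quantile normalization, no trend, a 3-group model, the replicate number as a block, leaving out each library and, chosen after seeing the data, removal of each library's length trend (lowess span 0.3). Tables were made with pandas 2.3.3 in Python 3.11.15 and plots with matplotlib 3.10.9.

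The genes and lists were chosen with earlier results of these data known. By rule, 13 core regulators, up to 12 called genes per direction with the largest change, genes called between the clones, and the highest and lowest in WT were named with values, with up to 4 genes of each list by smallest p. The lists were DREAM and MuvB, other kinetochore and centromere genes, condensin and cohesin, the anaphase-promoting complex, the CDK1 switch, other spindle, kinesin and cytokinesis genes, G1/S and DNA replication, p53-linked G2 brakes, and epithelial, immune, endothelial and fibroblast markers. Of 35 other kinetochore genes, 30 matched a symbol. Overlaps and pseudogenes were read from GENCODE 29 (GRCh38). The annotation behind the RPKM values is unknown, so whether the overlapping bases were counted is not known either. Some items are not reported here.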

Additional observations from a re-analysis of the deposited data

Results flagged for a closer look

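In 159 groups of 4 libraries, the value farthest from the others was screened by its gap to the nearest value over the range of the group (Dixon's test at the 95% level). About 5% of such groups are picked by chance. Among the mitosis and G2/M genes this picked CDK1 in KO414 (replicate 3 high at 69.46 RPKM, gap over range 0.874), CCNA2 in KO414 (replicate 2 high at 53.12 RPKM, 0.969) and PLK1 in KO414 (replicate 3 low at 28.85 RPKM, 0.97).

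Among the genes named from the related lists it picked CENPO in KO313 (replicate 1 low at 20.34 RPKM, 0.832) and in WT (replicate 4 low at 16.44 RPKM, 0.911), SKA3 in WT (replicate 3 low at 14.01 RPKM, 0.85), ZWINT in KO313 (replicate 1 low at 50.14 RPKM, 0.921), NCAPD3 in KO414 (replicate 1 low at 11.91 RPKM, 0.891), MCM3 in KO313 (replicate 1 low at 63.13 RPKM, 0.928) and MCM4 in KO414 (replicate 1 low at 50.49 RPKM, 0.857). The mean log2 level of the 56 genes in WT was also picked (0.972), with replicate 3 at -0.079 and the other WT libraries at 0.025 to 0.028.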

How the results depend on the processing

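Of the 20 genes called in p53 KO against WT, 13 were called under all 21 alternatives: CDC20, CDC25B, AURKB, PLK1, CENPA, KIF2C, KIF4A, SPC25, CDCA8, PRC1, ESPL1, FOXM1 and MYBL2. The number called was 17 with quantile normalization, 18 with no filter and 20 with the length trend removed. Leaving out 1 library gave 14 (without WT replicate 3) to 22 (without KO414 replicate 1), with a median log2 change of 0.09 to 0.16. For KO414 against WT it gave 10 to 17 and for KO313 12 to 19, and between the clones 0 were called throughout. For KO414, the 10 without its replicate 2 stood beside 1807 of all 12184 genes higher. The 17 without its replicate 1 stood beside 2540 of 12186. For KO313, the 12 without its replicate 2 stood beside 961 of 12175, and the 19 without KO414 replicate 1 beside 1986 of 12186. With the length trend removed KO414 had 19 and KO313 18, beside 2076 and 1541 of all 11444 genes higher. Calls over all genes moved as well: in p53 KO against WT, 1902 of 12215 genes were higher in the main setting. Without KO414 replicate 1 there were 2407 of 12186, and without KO414 replicate 4 there were 1599 of 12185. The count over all genes without WT replicate 3 is not given here. Quantile normalization gave 2039 of 12215, no filter 1898 of 18698, and removal of the length trend 2075 of 11444. The log2 change of TOP2A reversed with the length trend removed (-0.012), and with single libraries left out it ran from -0.044 (without WT replicate 3) to 0.062 (without KO414 replicate 1).

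The replicate numbers were not taken as pairs, since the labels give no shared origin and the correlations were mixed. With each group's mean taken off every gene, same-numbered libraries of different groups correlated at -0.19 to 0.51. Of the 12 pairs, 6 were over 0.1 and 6 not. For 8 of 12 libraries the best correlate in another group had their own number, a hint of pairing from the data, not from the design. With the replicate number as a block, 21 of the 56 genes were called in p53 KO, 19 of them also without it. MKI67 and TPX2 were added and CCNB1 was not called (adjusted p = 0.0547, limma). In KO414 15 were called, in KO313 16 and between the clones 0. Over all 12215 genes, the block gave 1810 higher in p53 KO, 1753 in KO414 and 1285 in KO313.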
